A study of Mus musculus with 6 samples.

Results

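The genes of glucose synthesis and fructose use in the renal proximal tubule were examined in kidneys of *Pkd1* mutant mice. A fixed list of 9 genes was taken (*Pck1*, *Pck2*, *G6pc*, *Slc37a4*, *Fbp1*, *Pcx*, *Khk*, *Ldhb* and *Sord*), and all 9 were found by symbol among the 23276 gene symbols of the table, in 19 of its 54721 transcript rows. Total kidney RNA came from 3 mice carrying KspCre with *Pkd1* F/RC (SKO) and 3 mice carrying the same alleles with miR17~92 F/F (DKO), all labelled postnatal day 22. All 6 kidneys therefore carried the Cre, a floxed *Pkd1* allele and the hypomorphic RC allele, and the groups differed by the floxed miRNA cluster. KspCre is driven by the promoter of *Cdh16* and acts in renal tubule cells, so a whole kidney also holds cells in which no floxed allele was recombined. How far it acted in the proximal tubule was not tested.

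The kidney is, beside the liver, the organ that releases newly made glucose into the blood, and within the kidney this is the work of the proximal tubule. Lactate is turned into pyruvate and then oxaloacetate, phosphoenolpyruvate is made from oxaloacetate, the steps of glycolysis run backwards to fructose-1,6-bisphosphate, and the last phosphates are removed by fructose bisphosphatase and glucose-6-phosphatase. The same cells take up fructose and phosphorylate it with ketohexokinase, and sorbitol dehydrogenase makes fructose from sorbitol.

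The measure used is the authors' mean level of each transcript over all 6 libraries, in CPM (read counts scaled to library size). It pools SKO and DKO kidneys, so the values below have no SD, and the contrast of DKO with SKO was not analysed here. Differences between genes are given as a description with no test. Because long transcripts collect more reads, orders and ratios between genes were taken as CPM per kb of transcript, for the most abundant RefSeq row with a length in the GENCODE M21 annotation, which was the case for 20167 genes. In whole-kidney RNA, fewer cells of a type and less RNA per cell cannot be told apart.

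Of the 9 genes, 8 lay above 90% of genes in CPM per kb, and the same number did so in mean CPM without division by length. The exception on both scales was *Pck2*. The median of the 9 genes was 48.5 CPM per kb, whereas the median gene of the table had 1.40 CPM per kb. Per kb, *Ldhb* was the most abundant and *Pck2* the least abundant of the 9, and the levels between them were ordered *Pck1*, *Fbp1*, *Sord*, *G6pc*, *Khk*, *Pcx* and *Slc37a4*. *Fbp1* was 1.01-fold above *Sord* and *G6pc* was 1.05-fold above *Khk*. With no error on any value, the order within these pairs of neighbours was not resolved. The largest step between neighbours was the last, in which *Slc37a4* was 12.7-fold above *Pck2*.

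At the entry of lactate, *Ldhb*, the heart-type subunit of lactate dehydrogenase that favours the conversion of lactate to pyruvate, reached 476.7 CPM in its RefSeq row and 465.8 CPM in a row assembled from the reads. This corresponded to 365.6 CPM per kb, above 99.9% of genes with a length. *Pcx*, the mitochondrial pyruvate carboxylase that makes oxaloacetate, was listed in 3 rows at 132.4, 132.2 and 132.2 CPM. Its RefSeq forms begin at different positions on chromosome 19 (4510472 for the form of 21 exons and 4594346 for the form of 20 exons, both ending near 4621752 in mm10), and the level did not separate them. *Pcx* stood at 31.9 CPM per kb, above 96.0% of genes.

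*Pck1*, the cytosolic phosphoenolpyruvate carboxykinase that commits oxaloacetate to glucose synthesis, was at 742.4 CPM in its RefSeq row and 739.1 CPM in an assembled row. It lies on the forward strand of chromosome 2, from 173153048 to 173159273, and its 10 exons sum to 2661 nucleotides. Its level of 279.0 CPM per kb was 8.75-fold that of *Pcx* and above 99.8% of genes. *Pck2*, which encodes the mitochondrial form of the same enzyme (chromosome 14, 55540266 to 55550017), was at 7.17 CPM in its 1 row. At 2.11 CPM per kb it was above 56.3% of genes, and *Pck1* exceeded it 132.4-fold. The ratio was 264.2 when both rows of *Pck1* were summed, which may count the same reads more than once.

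*Fbp1*, the fructose-1,6-bisphosphatase of liver and kidney, was at 220.2 CPM in its 1 row (chromosome 13, 62864753 to 62888282, reverse strand). This was 148.9 CPM per kb, above 99.4% of genes. *G6pc*, the catalytic subunit of glucose-6-phosphatase, which releases free glucose, was at 117.1 CPM (chromosome 11, 101367561 to 101377903). It stood at 48.5 CPM per kb, and *Fbp1* was 3.07-fold higher. *Slc37a4*, the transporter that brings glucose-6-phosphate to that enzyme in the endoplasmic reticulum, was at 55.9 CPM and 26.8 CPM per kb (chromosome 9, 44398176 to 44402966). The catalytic subunit was 1.81-fold above its transporter.

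*Khk*, ketohexokinase, which phosphorylates fructose, was the gene with the most rows. Of its 7 rows, 6 were assembled from the reads, and the rows ranged from 19.2 to 75.4 CPM. Its RefSeq row was at 73.2 CPM, or 46.3 CPM per kb (chromosome 5, 30921431 to 30931248). The rows fell into 4 between 67.2 and 75.4 CPM and 3 between 19.2 and 29.4 CPM, and a pair of the assembled rows held the same value of 67.2 CPM. The structure of the assembled forms was not analysed here, so the hepatic and the ubiquitous splice forms of ketohexokinase were not told apart. *Sord*, sorbitol dehydrogenase, was at 347.6 CPM in its 1 row (chromosome 2, 122234749 to 122265340) and 147.8 CPM per kb, above 99.4% of genes.

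**Figure D1:**
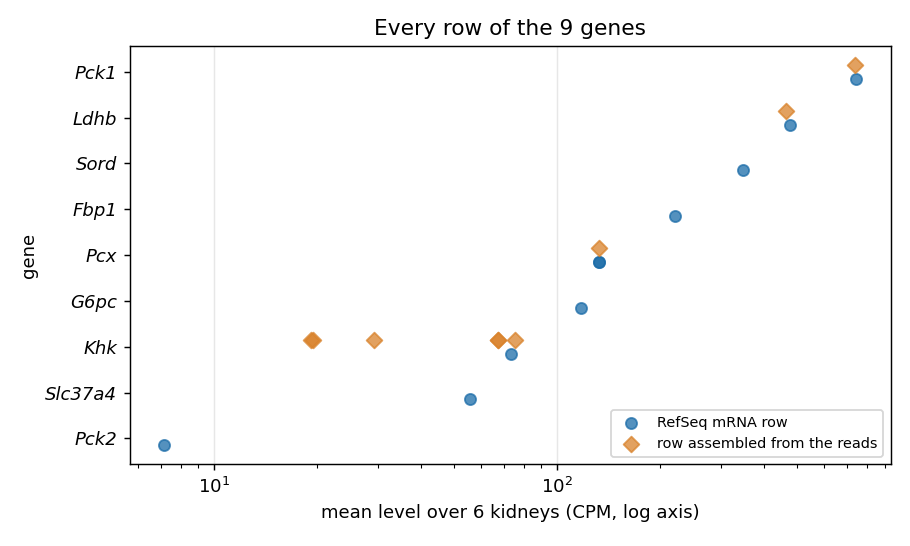
Mean level over 6 kidneys of every row of the 9 genes (x axis, CPM on a log axis; y axis, genes ordered by CPM, which is not divided by length). Circles are RefSeq rows and diamonds are rows assembled from the reads; the rows of *Pck1*, *Pcx* and *Ldhb* lie almost on each other, while those of *Khk* spread from 19.2 to 75.4 CPM.

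Rows of the same gene could lie close together or far apart. In 4 of the 9 genes there were 2 or more rows, and their log2 range was 0.01 for *Pck1*, 0.0017 for *Pcx*, 0.03 for *Ldhb* and 1.97 for *Khk*. Over 8470 genes with 2 or more rows and at least 1 CPM, the rows lay within 0.1 on the log2 scale in 44.2% and the median range was 0.16. Whether a read was counted for every transcript it overlapped was not tested. A sum over rows may therefore hold the same reads more than once.

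Pairs of enzymes of the same or of successive steps were set side by side. *Fbp1* was 25.7-fold above *Fbp2*, the muscle form, which was at 5.79 CPM per kb. *G6pc* was 6.46-fold above *G6pc3*, the form found in most tissues, at 7.51 CPM per kb (10.9-fold with the median of all rows of each gene, and 9.91-fold without division by length), and *G6pc2*, known from pancreatic islets, was at 0.140 CPM per kb. *Ldhb* was 3.71-fold above *Ldha*, the muscle-type subunit, at 98.5 CPM per kb. *Sord* was 1.64-fold above *Akr1b3*, the aldose reductase that makes its substrate sorbitol, at 90.3 CPM per kb. In all 5 pairs, that of *Pck1* and *Pck2* included, the first gene named was the more abundant. That first gene was always from the 9, which were chosen with earlier results of these data known, so the shared direction is a description only. The ratio was smallest for *Sord* and *Akr1b3*. That ratio was 2.78 without division by length and 1.64 with the median of all rows. It was also 1.64 with RefSeq rows alone, which the ratio per kb already uses. It fell to 0.546, and so turned in direction, only with all rows of a gene summed, where *Sord* had 1 row. Such a sum may hold the same reads more than once, so this turn is not read as a difference in level.

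**Figure D2:**
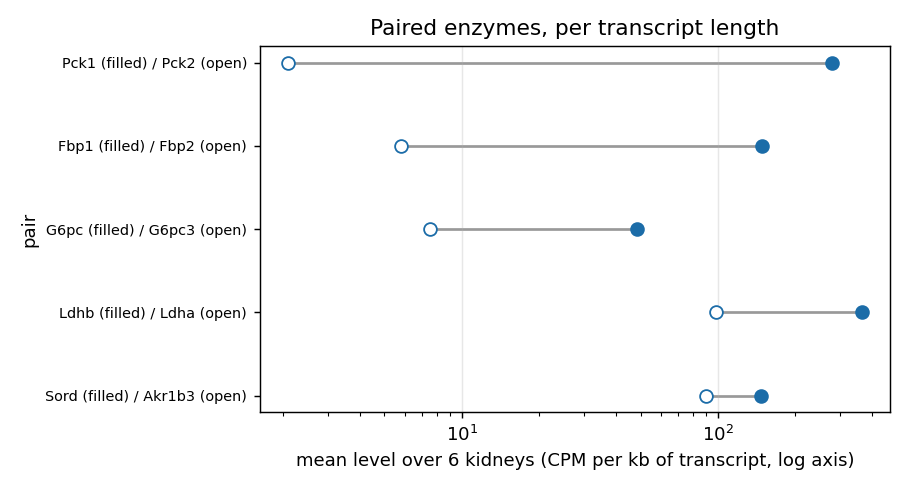
Mean level over 6 kidneys of 5 pairs of enzymes (x axis, CPM per kb of transcript on a log axis; y axis, pairs; filled circle, first gene; open circle, second gene). The gap is widest for *Pck1* and *Pck2* (132.4-fold) and narrowest for *Sord* and *Akr1b3* (1.64-fold, or 0.546 with all rows summed). A sum may hold the same reads more than once, and no error is known for these means.

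Other genes of the pathway were taken from lists. The 7 genes listed for steps shared with glycolysis were all above 90% of genes in CPM per kb, with a median of 107.8 CPM per kb and a range from 40.6 for *Eno1*, enolase, to 186.3 for *Gapdh*, which encodes glyceraldehyde-3-phosphate dehydrogenase. Of 11 genes for the entry of lactate, alanine and malate carbon, 9 were above 90% of genes on the same scale, with a median of 37.4 CPM per kb. The cytosolic malate dehydrogenase gene *Mdh1* was the highest of them at 169.7 CPM per kb, and the alanine aminotransferase gene *Gpt* the lowest at 1.85. Of 6 genes for fructose and polyol steps and sugar uptake, 3 were above 90% of genes. The triokinase gene, listed under its older symbol *Dak*, stood at 25.1 CPM per kb, and the fructose transporter gene *Slc2a5* at 6.15. Of 13 genes for regulators of glucose synthesis, 1 was above 90% of genes, with a median of 6.87 CPM per kb. This was *Hnf4a*, a transcription factor of liver and proximal tubule, at 44.1 CPM per kb, near the level of *G6pc*. *Glp1r*, a hormone receptor, was the lowest at 0.0295. Without division by length, the counts above 90% of genes in these lists were 7 of 7, 7 of 11, 4 of 6 and 5 of 13.

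Markers of cell types were read beside the 9 genes. All 8 proximal tubule markers were detected, from 11.4 CPM per kb for *Cubn*, the cubilin gene, to 423.1 for *Slc34a1*, the phosphate transporter gene, with a median of 42.1. The liver makes glucose with the same enzymes, and its marker genes *Alb*, *Apoa1* and *Ttr* were at 6.58, 1.35 and 15.3 CPM per kb. Per kb, *Ttr* was above 90.9% of genes and above the proximal tubule marker *Cubn*, while *Apoa1* was above 49.4%. Without division by length the order of *Ttr* and *Cubn* was reversed. *Ttr* was then at 18.2 CPM, above 78.6% of genes, and *Cubn* at 128.25 CPM, above 98.3%. Other kidney cells contributed RNA as well. The median of 3 thick ascending limb markers was 132.5 CPM per kb (range 6.06 to 374.4). That of 4 collecting duct markers was 32.3 (14.1 to 52.2). The medians of 2 endothelial and 2 fibroblast markers were 13.6 (11.1 to 16.1) and 12.3 (8.28 to 16.3) CPM per kb. Those of 2 podocyte and 2 distal convoluted tubule markers were 6.43 (2.22 to 10.6) and 23.1 (3.30 to 43.0). The macrophage marker *Adgre1*, listed as *Emr1*, was at 1.39. The part of each cell type in the levels of the 9 genes was not tested.

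**Figure D3:**
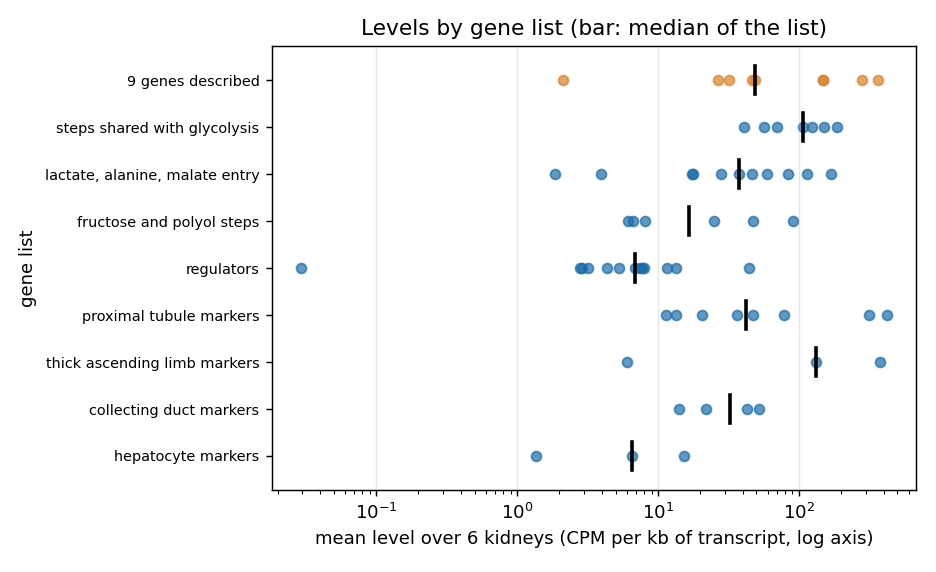
Mean level over 6 kidneys of the genes of each list (x axis, CPM per kb of transcript on a log axis; y axis, lists; points, genes; black bar, median of the list). The 9 genes (orange) have a median of 48.5 CPM per kb, with *Pck2* apart at 2.11. The medians of the proximal tubule, thick ascending limb, collecting duct and hepatocyte markers are 42.1, 132.5, 32.3 and 6.58.

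The 250 bases before the RefSeq start of *Pck1* and *Pck2* are shown because these are the isozymes whose levels lay farthest apart. They are RefSeq promoter windows of GRCm38.p6, the assembly of mm10, printed from 5′ to 3′ on the gene's strand: chr2:173152823-173153072 and chr14:55540016-55540265, both on the forward strand. RefSeq and GENCODE can place a start differently. The window of *Pck1* ends after the GENCODE start given above, whereas that of *Pck2* ends just before it. Capitals mark exact matches on either strand to TATAAA (a core promoter motif), CGTCA (the core of a cyclic AMP response element) and CCAAT.
Pck1: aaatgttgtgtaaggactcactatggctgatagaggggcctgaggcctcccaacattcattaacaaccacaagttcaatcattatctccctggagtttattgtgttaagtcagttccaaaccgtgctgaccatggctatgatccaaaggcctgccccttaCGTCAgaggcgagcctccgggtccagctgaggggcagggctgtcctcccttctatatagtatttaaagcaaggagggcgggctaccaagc
Pck2: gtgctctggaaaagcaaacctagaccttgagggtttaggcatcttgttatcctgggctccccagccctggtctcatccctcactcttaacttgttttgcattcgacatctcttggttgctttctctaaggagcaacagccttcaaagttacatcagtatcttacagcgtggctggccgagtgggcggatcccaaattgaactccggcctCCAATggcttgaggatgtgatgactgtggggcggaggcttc

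The window of *Pck1* held CGTCA once, beginning 90 bases before the RefSeq start, and neither of the other motifs. That of *Pck2* held CCAAT once, 41 bases before the start. The 9 genes have 12 such windows in RefSeq. CGTCA was found in 4 of the 12 windows, belonging to *Pck1*, *Khk* and *Slc37a4*, and in 17.8% of all 32851 windows of the same length. The windows of *Slc37a4* among these overlap and share a match, so the 4 windows do not stand for separate genes. TATAAA was found in 2 of the 12, against 12.4% of all windows, and CCAAT in 5, against 33.8%. The full palindrome TGACGTCA, which contains CGTCA, was in none of the 12 and in 1.55% of all. A match describes the letters of the window and is not evidence of binding.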

How the data were processed

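RNA of 3 SKO and 3 DKO kidneys was sequenced as 51 bp single-end reads from stranded total RNA libraries. According to the methods and the submitters' processing notes, reads were mapped to mm10 with TopHat2 2.0.12, alignments with a mapping quality under 10 were discarded, and the notes also name Cufflinks, featureCounts of Subread 1.4.6 and edgeR 3.2.4. The deposited values used here are the authors' edgeR average level of each transcript over all 6 libraries, in log2 CPM. Their header names no sample. The lowest value, shared by 4617 rows, corresponds to 0.0263 CPM. Another 4 columns hold the authors' own comparison of DKO with SKO (fold change, likelihood ratio, p-value and adjusted p-value) and were not used. A test on counts was planned for the case that the table held counts per kidney. It was not run, since the table as used holds 1 pooled value per transcript. How many reads each library held is unknown, so no interval was set.

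The members were kept by the symbol in the middle field of the row name. The 9 genes and all lists were chosen with earlier results of these data known. All rows of the members are reported, and lists are given by counts, with values for isozymes and some neighbouring steps of a member. Other list genes are named as examples, some for lying at an end of their list's range, which was known only after their values were seen. A gene was represented by its row with the highest mean CPM, and CPM was 2 to the power of the deposited value. CPM per kb used the exon length of the GENCODE M21 transcript (GRCm38) paired with the RefSeq identifier, available for 86.6% of gene symbols. One item of the planned lists and pairs is not reported here. Older symbols were matched through the RefSeq gene table. Python 3.11.15, numpy 2.4.6, pandas 2.3.3 and matplotlib 3.10.9 were used.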

Additional observations from a re-analysis of the deposited data

How the results depend on the processing

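With RefSeq rows alone, or the median of a gene's rows, the 9 genes kept their order per kb, 6 were at 100 CPM or more, 8 were above 90% of genes and the first gene was the more abundant in all 5 pairs. Order and ratios per kb rest on RefSeq rows to begin with, so the setting with RefSeq rows alone could not change them. The median could not change the level of the 5 genes with 1 row. Summing all rows of a gene kept 4 of the 9 positions in the order, put 7 genes at 100 CPM or more and 7 above 90% of genes, and turned the ratio of *Sord* to *Akr1b3* to 0.546, while the other 4 pairs kept their direction. The sum, which may hold the same reads more than once, moved the ratio of *Pck1* to *Pck2* to 264.2. Without division by length, 2 of the 9 positions in the order were kept and all 5 pairs kept their direction. Among genes with at least 1 CPM, 7 of the 9 were above 90%. The count above 90% in CPM per kb was added after the data were seen. Leaving out a replicate, other normalizations, other tools and a test of DKO against SKO were not run, since each needs counts per kidney. No paired analysis was possible because the values used are pooled over all 6 kidneys. Neither the spread between kidneys nor counting error is known for any level given here. Assembled rows have no length here, so their CPM entered the sum and the median divided by the length of the gene's RefSeq row, and did not enter the values of the report per kb.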
